A study of Homo sapiens with 12 samples.

Results

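The enzymes that make, salvage and degrade the building blocks of DNA were followed across 2 acute myeloid leukaemia cell lines treated with ASLAN003. The set holds 10 genes chosen by name, RRM1, RRM2, TYMS, DTYMK, DUT, TK1, TK2, DCK, DCTD and SAMHD1, and all 10 were found among the 13881 genes of the deposited expression table. KG-1 cells with ASLAN003, KG-1 cells with DMSO, MOLM-14 cells with ASLAN003 and MOLM-14 cells with DMSO were each represented by 3 RNA-seq libraries, 12 in all, prepared after 96 h of treatment. KG-1 and MOLM-14 are established human leukaemia lines, DMSO is the solvent control, and ASLAN003 inhibits dihydroorotate dehydrogenase, the mitochondrial enzyme of pyrimidine synthesis. No source used here states the dose. The labels do not say whether the 3 libraries of a group came from separate cultures, so the p-values reflect variation among the sequenced libraries alone, and this variation may be technical.

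Deoxynucleotides are made by ribonucleotide reductase, a complex of the catalytic subunit RRM1 with the radical-bearing subunit RRM2, or with RRM2B outside S phase. Thymidylate needs a further branch, in which DUT and DCTD supply dUMP, TYMS methylates it with a folate cofactor, and DTYMK phosphorylates the product. The kinases TK1 in the cytosol, TK2 in mitochondria and DCK recover deoxynucleosides, whereas SAMHD1 hydrolyses deoxynucleoside triphosphates and is known for high levels in myeloid cells. The uridine nucleotides that feed the pyrimidine part of this network lie downstream of the enzyme that ASLAN003 inhibits.

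Levels are given as FPKM, fragments scaled by transcript length and library size, so that different genes can be compared per length. Depth, estimated from the values themselves, was 18100000 to 19000000 fragments per library, and multiples of it would match the values too. Changes are differences of group means of log2(FPKM + 1), with the SE of a limma fit over 13353 tested genes, a set that includes all 10 genes, and a gene is said to rise or fall only at a Benjamini-Hochberg adjusted p under 0.05. Myeloid genes were present in every library, with SPI1 at 101 to 260.5 FPKM and CD33 at 23.5 to 46.5 FPKM. Of the same list of 12 progenitor and leukaemia markers, FLT3 had 17.5 to 118.4 FPKM and HOXA9 7.15 to 79.96 FPKM. MEIS1 had 5.79 to 25.5 FPKM and GATA2 4.99 to 30.9 FPKM. Lower were KIT, at 0.03 to 4.07 FPKM, and CD34, a progenitor surface marker, at no more than 0.17 FPKM, and PROM1 was not listed. MOLM-14 ASLAN003 replicate 1 stood apart from its group, at 36.2 on the principal component that separated the treatments, against 14.6 and 9.37 for the other libraries of that group. Results of the 10 genes that depend on it are given with and without it, as are several of the other genes and lists. Between libraries of a group, the median SD of a gene was 0.156 in KG-1 ASLAN003, 0.129 in KG-1 DMSO, 0.271 in MOLM-14 ASLAN003 and 0.177 in MOLM-14 DMSO libraries, on the log2 scale.

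The one of the 10 genes that rose in both lines was SAMHD1, the gene of the enzyme that removes deoxynucleotides. In KG-1, 3 of the 10 genes were called, SAMHD1 as higher and RRM1 and TYMS as lower, beside 33.7% of all tested genes (19.4% higher and 14.3% lower). In MOLM-14, 2 of the 10 were called, SAMHD1 and RRM2, both higher, beside 13% of all tested genes (9.69% higher and 3.33% lower). SAMHD1 was thus 1 of the 5.66% of tested genes that were called higher in both lines, and none of the 10 was among the 2.23% called lower in both. The median change of the 10 genes was -0.14 in KG-1 and 0.03 in MOLM-14, beside medians of 0.05 and 0.08 over all tested genes. The share called was slightly below the background in KG-1, where it was below for rises and above for falls, and above the background in MOLM-14, where the RRM2 call was lost under 15 of 22 alternatives. Counts of 1 to 3 genes are given as a description.

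**Figure D1:**
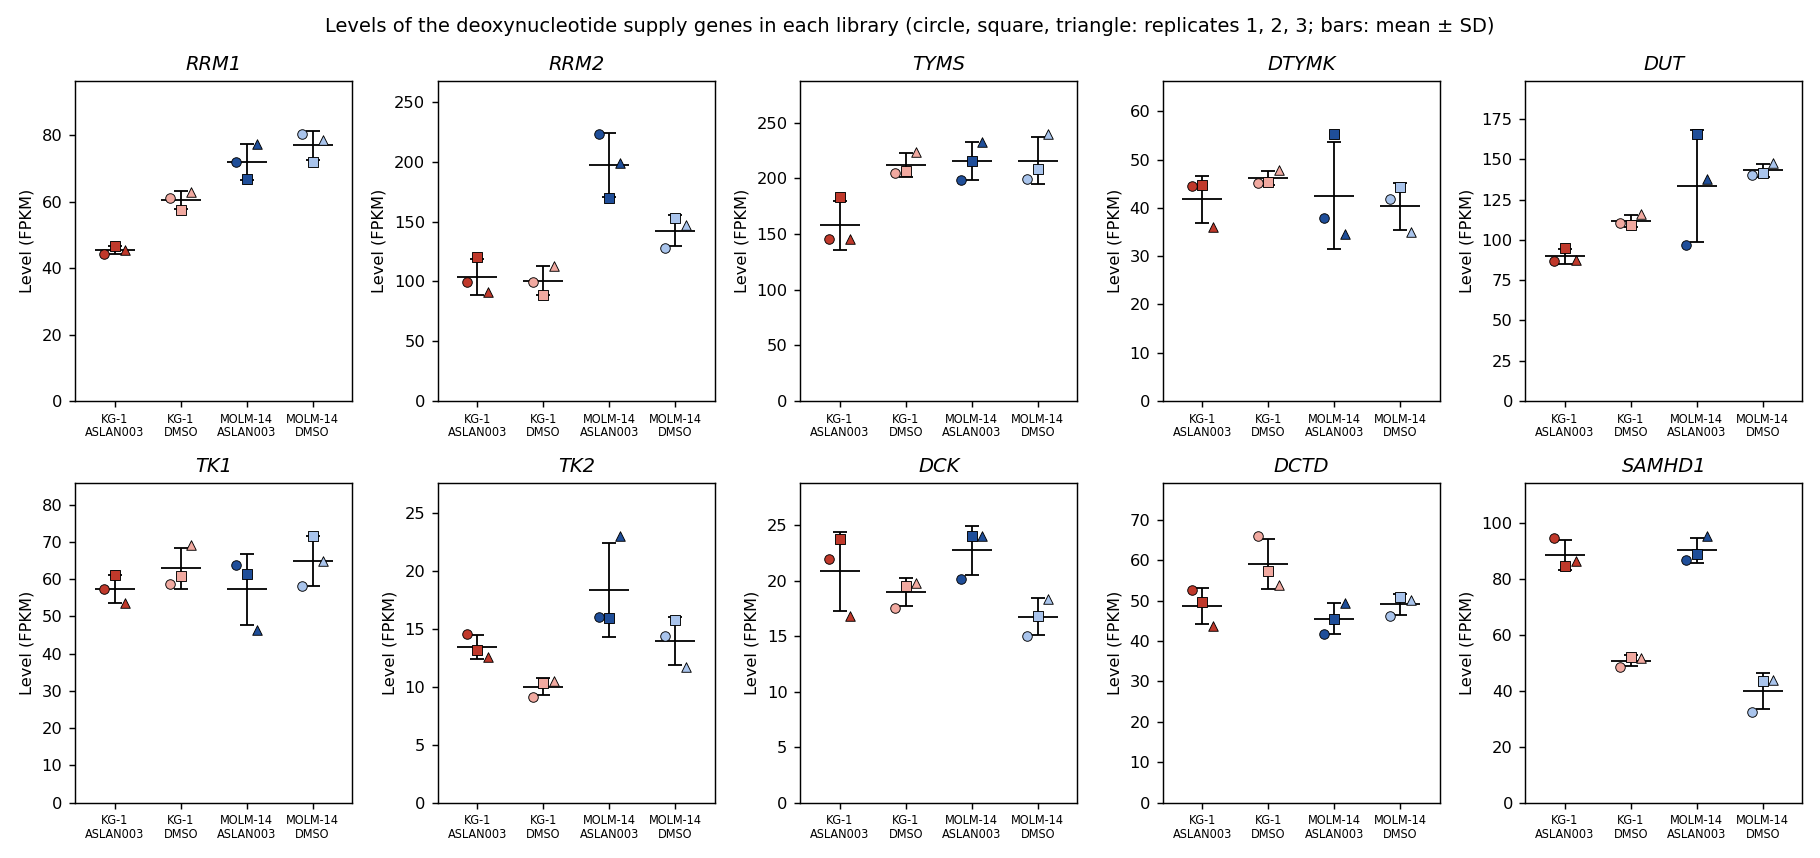
Level (FPKM, linear axis from 0) of each of the 10 genes in every library of the 4 groups, with the mean (long bar) and SD (error bar) of 3 libraries. SAMHD1 lies between 84.3 and 95.2 FPKM in the 6 ASLAN003 libraries and between 32.5 and 51.9 FPKM in the 6 DMSO libraries.

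SAMHD1 (chr20:36889773-36951901, minus strand, GRCh38) had 94.4, 84.3 and 86.2 FPKM in KG-1 ASLAN003 libraries, against 48.3, 51.9 and 51.6 FPKM in KG-1 DMSO libraries. MOLM-14 ASLAN003 libraries had 86.6, 88.7 and 95.2 FPKM of SAMHD1, against 32.5, 43.3 and 43.8 FPKM in MOLM-14 DMSO libraries. Every treated library was above every DMSO library of either line. The mean level was 1.74-fold that of DMSO in KG-1, a change of 0.79 ± 0.12 (SE, n = 3 and 3, limma adjusted p = 0.000208), and 2.26-fold in MOLM-14, a change of 1.17 ± 0.12 (limma adjusted p = 0.000119). Treated levels of the lines overlapped, at 88.3 ± 5.35 FPKM in KG-1 and 90.1 ± 4.48 FPKM in MOLM-14 (SD, n = 3 each), whereas without the drug KG-1 was higher, at 50.6 ± 1.99 FPKM against 39.9 ± 6.40 FPKM in MOLM-14. The difference between the changes, KG-1 minus MOLM-14, was -0.38 ± 0.16 and did not pass (limma adjusted p = 0.170).

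In bulk RNA, more cells of a type and more RNA of a gene per cell cannot be told apart, and markers of monocytes moved with SAMHD1. For the marker counts that follow, the shares of all tested genes were 19.4% higher and 14.3% lower in KG-1. In MOLM-14 these shares were 9.69% higher and 3.33% lower. Of 16 monocyte and macrophage markers, 14 were listed in the table, and 11 of the 14 rose in KG-1 and 9 of the 14 in MOLM-14. Their summed level was 1473.7 to 1756.9 FPKM in KG-1 ASLAN003, against 223.1 to 261.1 FPKM in KG-1 DMSO libraries. In MOLM-14 the sum was 3101.7 to 4374.9 FPKM in ASLAN003, against 777.9 to 830.6 FPKM in DMSO libraries. CD14, FCN1 and S100A12 were each listed at 0 in at least 1 library, and CD163 and MRC1 were not in the table. Granulocyte markers also moved, with 9 of 14 higher and 4 lower in KG-1, and 4 higher and 2 lower in MOLM-14. Their summed level was 30524.6 to 37816.9 FPKM in KG-1 ASLAN003, against 9760.8 to 12677.8 FPKM in KG-1 DMSO libraries, and 4350.4 to 7435.5 FPKM in MOLM-14 ASLAN003, against 3578.9 to 4338.7 FPKM in MOLM-14 DMSO libraries. The part of either marker list in the SAMHD1 result was not tested. Of 10 tested progenitor and leukaemia markers, 7 rose in KG-1 (4 without KG-1 ASLAN003 1 or 2 or KG-1 DMSO 1 or 2) and 3 in MOLM-14 (5 without MOLM-14 ASLAN003 2 and 1 without MOLM-14 DMSO 3). Of the 12 lymphoid markers 4 were in the table, CD3D at no more than 0.22 FPKM, and of the 3 tested, 3 rose in KG-1 and 1 in MOLM-14. Of the 12 erythroid and megakaryocyte markers 3 were in the table, and 1 fell in KG-1, a call lost in most fits with 1 library left out.

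SAMHD1 overlaps TLDC2 on the opposite strand, a gene at 0.5 to 6.36 FPKM, and no source used here says whether counting used strand. TLDC2 rose in KG-1 (1.40 ± 0.26, limma adjusted p = 0.00108) and had a change of 0.56 ± 0.26 in MOLM-14 (limma adjusted p = 0.172), at levels far below those of SAMHD1. Genes whose values ran most like SAMHD1, after the mean of each line was removed, were NFATC1 (Pearson r = 0.991 across 12 libraries), FAM43A (r = 0.989) and SH3KBP1 (r = 0.981), out of 11084 genes compared. These correlations share libraries and treatment and are given as a description only.

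The proximal promoters of SAMHD1, TYMS and RRM2 are printed as those of a gene that rose in both lines, a gene that fell in KG-1 and a gene whose call was often lost. RRM1, which also held its call in KG-1 under all 22 alternatives, is not printed. No basic coding transcript of GENCODE 29 starts within 100 bases of its RefSeq start, although the annotated interval of the gene begins near it. Its window held 1 CCAAT word and 1 word of the cell cycle homology region, 28 and 199 bases before that start. Each run is the 250 bases upstream of the RefSeq start (GRCh38.p14), 5′ to 3′ on the gene's strand, at chr20:36951709-36951958 (minus) for SAMHD1, chr18:657403-657652 (plus) for TYMS and chr2:10122489-10122738 (plus) for RRM2. The RRM2 window lies wholly, and the SAMHD1 and TYMS windows partly, inside the GENCODE intervals given here for these genes. All marked words fall inside those intervals. Capitals mark matches to the words searched.
SAMHD1: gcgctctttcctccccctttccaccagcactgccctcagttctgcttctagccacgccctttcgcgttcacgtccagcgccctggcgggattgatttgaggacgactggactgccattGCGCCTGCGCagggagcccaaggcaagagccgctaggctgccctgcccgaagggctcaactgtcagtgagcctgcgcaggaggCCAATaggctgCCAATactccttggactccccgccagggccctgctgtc
TYMS: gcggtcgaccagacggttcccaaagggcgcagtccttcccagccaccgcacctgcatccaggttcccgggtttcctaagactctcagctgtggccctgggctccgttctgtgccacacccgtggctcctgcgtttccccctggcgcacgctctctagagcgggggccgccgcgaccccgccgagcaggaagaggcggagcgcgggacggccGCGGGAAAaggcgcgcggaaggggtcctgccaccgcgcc
RRM2: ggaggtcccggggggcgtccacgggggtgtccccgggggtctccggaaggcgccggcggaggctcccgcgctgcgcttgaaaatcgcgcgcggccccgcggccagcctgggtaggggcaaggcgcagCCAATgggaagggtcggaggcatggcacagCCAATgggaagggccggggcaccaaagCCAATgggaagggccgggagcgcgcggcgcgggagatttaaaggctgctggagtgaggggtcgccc
The words, searched on both strands, were TTTCCCGC, TTTGGCGC, TTTCGCGC and TTTGCCGC for E2F (in 2.8% of 35116 RefSeq windows of the same length), CCAAT (32.0%), TTTGAA for the cell cycle homology region (13.3%), a pair of GAAA words 2 bases apart for interferon response factors (3.0%), GAGGAAGT for PU.1 (2.2%) and GCGC, any base and TGCGC in a row for NRF1 (5.1%), the last chosen after the sequences were seen. SAMHD1 held 2 CCAAT words (at least 2 in 9.5% of windows), 38 and 49 bases before the start, and 1 NRF1 word. TYMS held 1 E2F word on the reverse strand, 39 bases before the start. RRM2 held 3 CCAAT words (at least 3 in 2.9% of windows), 66, 93 and 123 bases before the start, each followed by gggaaggg. The words for PU.1, interferon response factors and the cell cycle homology region did not occur in the 3 windows printed. Such matches describe letters and do not show that a factor binds.

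The ribonucleotide reductase subunits did not move together. RRM1 (chr11:4094707-4138876, plus strand), the catalytic subunit, had 44.2, 46.8 and 45.5 FPKM in KG-1 ASLAN003 libraries, against 61.1, 57.6 and 63.1 FPKM in KG-1 DMSO libraries. All treated libraries lay below all DMSO libraries, and RRM1 fell by 0.40 on the log2 scale (SE 0.091, limma adjusted p = 0.00434). In MOLM-14 it had 71.9, 66.7 and 77.5 FPKM in ASLAN003 and 80.3, 72.0 and 78.6 FPKM in DMSO libraries, which overlapped (-0.10 ± 0.091, limma adjusted p = 0.547). The difference between the lines' changes was -0.31 ± 0.13 (limma adjusted p = 0.155).

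RRM2 (chr2:10120698-10131419, plus strand), the subunit whose supply rises in S phase, had 99.2, 121 and 91.2 FPKM in KG-1 ASLAN003 libraries and 99.4, 88.9 and 113 FPKM in KG-1 DMSO libraries. These overlapped, with a difference of 0.04 ± 0.14 (limma adjusted p = 0.849) that was below 0 under 2 other scalings. In MOLM-14 it had 223, 169.7 and 199 FPKM in ASLAN003 libraries, against 128, 153 and 147 FPKM in DMSO libraries. The MOLM-14 groups did not overlap and RRM2 rose by 0.46 ± 0.14 (limma adjusted p = 0.0429), 1.38-fold in mean level. The call was lost under 15 of 22 alternatives, and over all 22 the adjusted p ranged from 0.0236 to 0.154 and the change from 0.31 to 0.56. Among left-out libraries, it was lost without KG-1 ASLAN003 1, KG-1 DMSO 1 or 2, MOLM-14 ASLAN003 1 or 3, or any MOLM-14 DMSO library, at adjusted p between 0.0504 and 0.143. Without MOLM-14 ASLAN003 replicate 1, the change was 0.37 (limma adjusted p = 0.110).

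RRM2B, the alternative small subunit and a known p53 target, had 6.5, 8.93 and 8.45 FPKM in KG-1 ASLAN003 libraries, against 4.5, 3.73 and 4.51 FPKM in KG-1 DMSO libraries. MOLM-14 had 39.5, 23.8 and 25.3 FPKM of RRM2B in ASLAN003 libraries, against 18.0, 15.8 and 18.8 FPKM in DMSO libraries. It rose in KG-1 (0.77 ± 0.19, limma adjusted p = 0.00737) and in MOLM-14 (0.69 ± 0.19, limma adjusted p = 0.0307), where the highest library was again replicate 1. Without that library the MOLM-14 change was 0.47 (limma adjusted p = 0.0776), and leaving out any MOLM-14 DMSO library also ended the call, at adjusted p between 0.0565 and 0.104, as did centred medians (0.0749), quantile normalization (0.0814), MOLM-14 fitted alone (0.123) and library weights (0.0922).

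Within each library, the balance of RRM2 over RRM1 was higher after treatment in both lines. As a difference of log2(FPKM + 1), it was 1.15, 1.35 and 0.99 in KG-1 ASLAN003, against 0.69, 0.62 and 0.83 in KG-1 DMSO libraries. For MOLM-14 it was 1.62, 1.33 and 1.35 in ASLAN003, against 0.67, 1.08 and 0.89 in DMSO libraries. The groups did not overlap in either line, so that RRM2 stood at 2.00 to 2.58 times RRM1 in treated KG-1 and 1.54 to 1.80 times in KG-1 with DMSO. The balance of RRM2 over RRM2B went the other way in KG-1, at 3.55 ± 0.23 in ASLAN003 and 4.27 ± 0.094 in DMSO libraries (SD, n = 3 each), and overlapped between groups in MOLM-14, at 2.73 ± 0.23 in ASLAN003 and 2.96 ± 0.22 in DMSO libraries. The MOLM-14 difference of -0.23 was -0.10 without MOLM-14 ASLAN003 replicate 1 or without MOLM-14 DMSO replicate 2. No test was run on these balances.

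**Figure D2:**
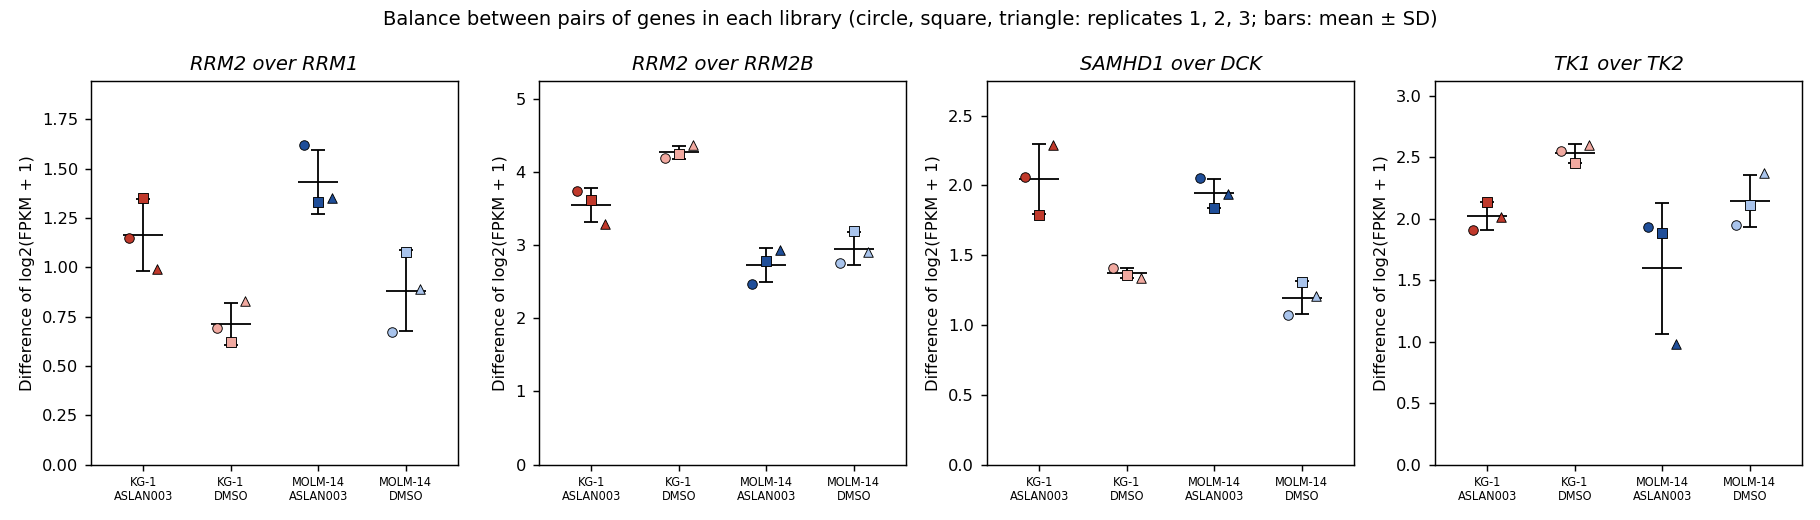
Difference of log2(FPKM + 1) between the 2 genes of a pair in every library of the 4 groups, with the mean (long bar) and SD (error bar) of 3 libraries. RRM2 over RRM1 and SAMHD1 over DCK are higher in every ASLAN003 library than in any DMSO library of the same line.

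Thymidylate synthesis showed a fall at one enzyme in KG-1. TYMS (chr18:657604-673578, plus strand) had 145, 183 and 145 FPKM in KG-1 ASLAN003 libraries, against 205, 207 and 224 FPKM in KG-1 DMSO libraries. The groups did not overlap, and TYMS fell by 0.43 on the log2 scale (SE 0.11, limma adjusted p = 0.010). MOLM-14 had 198, 216 and 232 FPKM in ASLAN003 and 199, 209 and 239.5 FPKM in DMSO libraries, nearly the same range, with a difference of -0.0010 ± 0.11 (limma adjusted p = 1.00) that was above 0 under 3 alternatives. The test of the difference between the lines' changes gave -0.43 ± 0.16 (limma adjusted p = 0.107). It passed without KG-1 ASLAN003 replicate 2 (-0.54, adjusted p = 0.0481) and without MOLM-14 ASLAN003 replicate 1 (-0.49, adjusted p = 0.0477). TYMS was the most abundant of the 10 genes in each group, although in MOLM-14 ASLAN003 libraries its range overlapped that of RRM2. Its locus overlaps ENOSF1 (15.4 to 45.1 FPKM) and TYMSOS (0.69 to 3.04 FPKM) on the opposite strand, of which neither was called in KG-1 (-0.58, adjusted p = 0.0774, and -0.63, adjusted p = 0.143).

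DUT (chr15:48331011-48343373, plus strand), which hydrolyses dUTP to dUMP, had 86.7, 95.1 and 87.5 FPKM in KG-1 ASLAN003 libraries, against 110.3, 109 and 116 FPKM in KG-1 DMSO libraries. All treated libraries were lower, but the difference of -0.31 ± 0.15 did not pass (limma adjusted p = 0.123). It passed under 4 of 22 alternatives, and over all 22 the limma adjusted p ranged from 0.00371 to 0.251. The fit shares its spread with MOLM-14, where replicate 1 of the ASLAN003 group had 96.9 FPKM beside 166 and 138 FPKM in the other treated libraries and 140.1, 142 and 148 FPKM in DMSO libraries. Without MOLM-14 ASLAN003 replicate 1, the KG-1 difference was -0.31 and passed (limma adjusted p = 0.00928), the MOLM-14 difference was 0.08, against -0.13 with it, and the difference between the changes passed at -0.39 (limma adjusted p = 0.0453), against -0.18 with it. The nuclear and mitochondrial forms of DUT are 1 value in the table, and GENCODE names 8 pseudogenes of DUT, none of them listed, so its level may include reads of copies.

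DCTD (chr4:182890060-182917936, minus strand), which deaminates dCMP to dUMP, had 52.5, 49.7 and 43.8 FPKM in KG-1 ASLAN003 libraries, against 66.0, 57.4 and 53.8 FPKM in KG-1 DMSO libraries. The groups did not overlap, and the difference of -0.27 ± 0.11 missed the threshold (limma adjusted p = 0.0770), although it passed under 3 other scalings at adjusted p between 0.0188 and 0.0407. In MOLM-14 it had 41.7, 45.4 and 49.4 FPKM in ASLAN003 and 46.2, 50.9 and 50.3 FPKM in DMSO libraries (-0.11 ± 0.11, limma adjusted p = 0.570). DTYMK (chr2:241675742-241686991, minus strand), the thymidylate kinase, averaged 41.8 ± 4.94 FPKM in KG-1 ASLAN003 and 46.2 ± 1.51 FPKM in KG-1 DMSO libraries (SD, n = 3 each). The DTYMK groups did not overlap in KG-1, yet the difference was -0.15 ± 0.16 (limma adjusted p = 0.522). In MOLM-14, DTYMK was at 37.8, 55.3 and 34.6 FPKM in ASLAN003 and 41.8, 44.4 and 34.9 FPKM in DMSO libraries, and the difference of 0.05 ± 0.16 (limma adjusted p = 0.884) changed sign under 5 alternatives, 2 of them other scalings.

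Counted by overlap, 7 of the 10 genes had treated libraries in KG-1 that were all higher (TK2 and SAMHD1) or all lower (RRM1, TYMS, DTYMK, DUT and DCTD) than the DMSO libraries, beside 55.9% of all tested genes (31.4% higher and 24.5% lower). In MOLM-14, 4 of the 10 did, all of them higher (RRM2, TK2, DCK and SAMHD1), beside 25.9% of all tested genes (17.7% higher and 8.17% lower). The all-lower group in KG-1 therefore holds both called genes and 3 that did not pass.

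The salvage kinases showed no call in either line. TK1 (chr17:78174075-78187233, minus strand), the S phase thymidine kinase of the cytosol, had 57.4, 61.2 and 53.7 FPKM in KG-1 ASLAN003 and 58.6, 60.9 and 69.2 FPKM in KG-1 DMSO libraries. The MOLM-14 values of TK1 were 63.9, 61.5 and 46.4 FPKM in ASLAN003 and 58.2, 71.6 and 64.8 FPKM in DMSO libraries. Groups overlapped in both lines, with differences of -0.13 ± 0.13 in KG-1 (limma adjusted p = 0.493) and -0.19 ± 0.13 in MOLM-14 (limma adjusted p = 0.394).

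TK2 (chr16:66508003-66552544, minus strand), the mitochondrial thymidine kinase, had 14.6, 13.2 and 12.6 FPKM in KG-1 ASLAN003 libraries, against 9.17, 10.3 and 10.6 FPKM in KG-1 DMSO libraries. MOLM-14 had 16.04, 15.96 and 23.05 FPKM of TK2 in ASLAN003 libraries, against 14.4, 15.8 and 11.8 FPKM in DMSO libraries. Treated libraries were higher in both lines without overlap, by 0.39 ± 0.16 in KG-1 (limma adjusted p = 0.0797) and 0.36 ± 0.16 in MOLM-14 (limma adjusted p = 0.165), neither past the threshold. The KG-1 difference passed under 3 of 22 alternatives, and over all 22 the limma adjusted p ranged from 0.0047 to 0.236. One of the 3 was the fit without MOLM-14 ASLAN003 replicate 3 (0.39, adjusted p = 0.0384), the library with the highest TK2 level. An annotated gene on the same strand, AC010542.3, overlaps TK2, so reads of the pair may be divided uncertainly.

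DCK (chr4:70992538-71030914, plus strand), the deoxycytidine kinase that also activates cytarabine, had 21.9, 23.7 and 16.8 FPKM in KG-1 ASLAN003 and 17.5, 19.5 and 19.8 FPKM in KG-1 DMSO libraries, which overlapped. In MOLM-14 it had 20.2, 24.01 and 24 FPKM in ASLAN003 libraries, against 15.0, 16.9 and 18.4 FPKM in DMSO libraries, which did not. The differences were 0.12 ± 0.14 in KG-1 (limma adjusted p = 0.567), at or below 0 under 2 other scalings, and 0.42 ± 0.14 in MOLM-14 (limma adjusted p = 0.0728). The MOLM-14 difference passed without KG-1 ASLAN003 replicate 3 (0.42, adjusted p = 0.0443). DCK overlaps MOB1B (2.87 to 11.2 FPKM) on the same strand, and MOB1B rose in KG-1 (0.95 ± 0.23, limma adjusted p = 0.00635).

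SAMHD1 and DCK act in opposite directions on the pool of deoxycytidine nucleotides, and the balance of SAMHD1 over DCK separated the treatments. As a difference of log2(FPKM + 1), it was 2.06, 1.79 and 2.29 in KG-1 ASLAN003, against 1.41, 1.36 and 1.34 in KG-1 DMSO libraries. MOLM-14 libraries were at 2.05, 1.84 and 1.94 with ASLAN003, against 1.07, 1.31 and 1.21 with DMSO. SAMHD1 was thus at 3.55 to 5.12 times the level of DCK in treated KG-1 libraries, against 2.61 to 2.76 times in KG-1 DMSO libraries. In MOLM-14 the range was 3.69 to 4.30 times in ASLAN003, against 2.166 to 2.57 times in DMSO libraries. TK1 over TK2 was lower after treatment, at 2.02 ± 0.12 in KG-1 ASLAN003 and 2.54 ± 0.077 in KG-1 DMSO libraries (SD, n = 3 each), and at 1.60 ± 0.54 in MOLM-14 ASLAN003 and 2.14 ± 0.21 in MOLM-14 DMSO libraries. The MOLM-14 difference of -0.55 was -0.24 without MOLM-14 ASLAN003 replicate 3, the library at 0.98 beside 1.93 and 1.88.

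**Figure D3:**
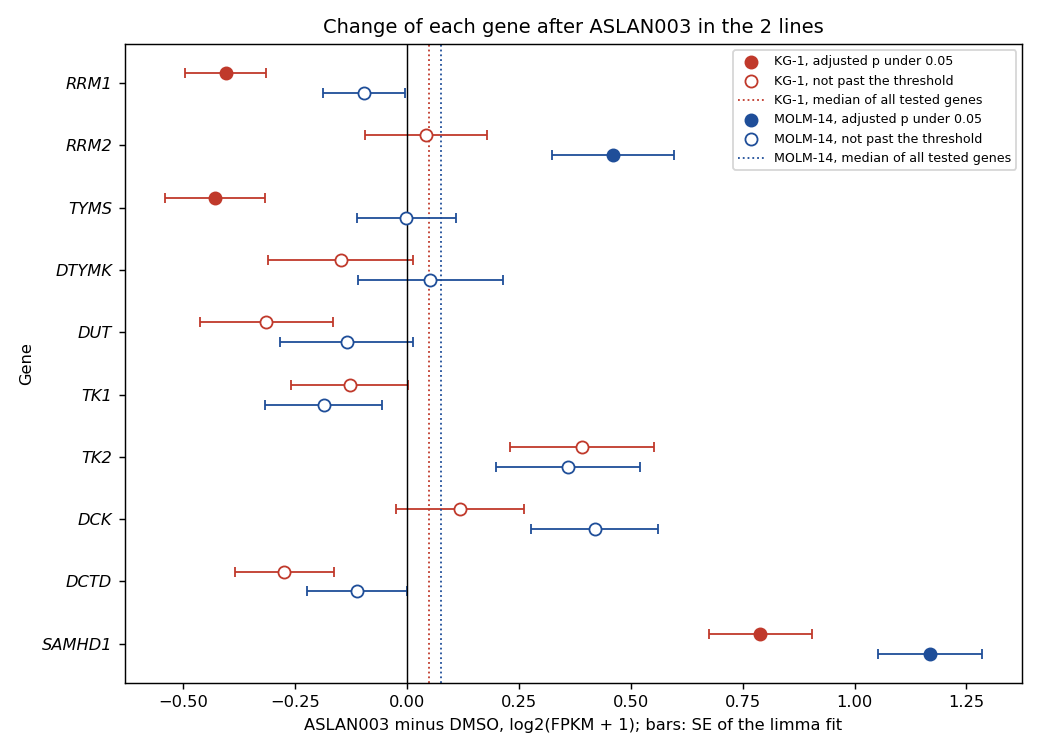
Change of each of the 10 genes after ASLAN003, as the difference of group means of log2(FPKM + 1) with the SE of the limma fit, in KG-1 (upper, red) and MOLM-14 (lower, blue). Filled points have an adjusted p under 0.05, namely RRM1, TYMS and SAMHD1 in KG-1 and RRM2 and SAMHD1 in MOLM-14, and dotted lines give the medians of all tested genes, 0.05 in KG-1 and 0.08 in MOLM-14.

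None of the 10 changes differed between the lines at the threshold, beside 9.94% of all tested genes (5.05% higher and 4.89% lower in KG-1). By the limma fit 4 of them, those of RRM1, RRM2, TYMS and SAMHD1, had an unadjusted p under 0.05. The 9.94% is for adjusted p, and no share of all tested genes at the unadjusted threshold is given. Weighting each library by its spread gave 1 call at an adjusted p under 0.05. For each of these 4 genes the change was more negative, or less positive, in KG-1 than in MOLM-14. The number of calls was 2 without MOLM-14 ASLAN003 replicate 1 and 1 without KG-1 ASLAN003 replicate 2.

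Without the drug, the lines already differed in 4 of the 10 genes, beside 49.2% of all tested genes (27.1% higher and 22.1% lower in KG-1). In DMSO, RRM1 was lower in KG-1, at 60.6 ± 2.81 FPKM, than in MOLM-14, at 77.0 ± 4.41 FPKM (-0.34 ± 0.091, limma adjusted p = 0.00775). RRM2 was also lower, at 100.5 ± 12.3 FPKM in KG-1 and 143 ± 12.97 FPKM in MOLM-14 (-0.50 ± 0.14, limma adjusted p = 0.00814). TK2 was lower, at 10.0 ± 0.737 FPKM in KG-1 and 13.97 ± 2.04 FPKM in MOLM-14 (SD, n = 3 each; -0.44 ± 0.16, limma adjusted p = 0.0387), and SAMHD1 was higher (0.35 ± 0.12, limma adjusted p = 0.0240). The SAMHD1 call was lost without KG-1 DMSO 2, KG-1 DMSO 3 or MOLM-14 DMSO 1 (adjusted p of 0.0677 to 0.109), and the TK2 call without any KG-1 DMSO library, KG-1 ASLAN003 2 or MOLM-14 DMSO 1 or 2 (0.0517 to 0.140). DUT, at 112 ± 3.77 FPKM in KG-1 and 143 ± 4.08 FPKM in MOLM-14, missed the threshold (-0.35 ± 0.15, limma adjusted p = 0.0649) but passed without MOLM-14 ASLAN003 replicate 1 (adjusted p = 0.00303) or 2 (0.0228). DCTD, at 59.1 ± 6.25 FPKM in KG-1 and 49.1 ± 2.56 FPKM in MOLM-14, also missed it (0.26 ± 0.11, limma adjusted p = 0.0722) and passed without MOLM-14 ASLAN003 replicate 1 (0.0494). The DMSO libraries of the lines did not overlap for 7 of the 10 genes, beside 63.3% of all tested genes (34.3% higher and 29% lower in KG-1). These baseline values share the DMSO libraries with the treatment comparisons.

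The order of levels changed mostly at SAMHD1. It ranked 4th of the 10 genes in both ASLAN003 groups, against 7th in KG-1 DMSO and 8th in MOLM-14 DMSO. In KG-1 ASLAN003 libraries the order was TYMS, RRM2, DUT, SAMHD1, TK1, DCTD, RRM1, DTYMK, DCK and TK2, in which RRM2 and DUT, DUT and SAMHD1, DCTD and RRM1, and RRM1 and DTYMK overlapped. In KG-1 DMSO libraries it was TYMS, DUT, RRM2, TK1, RRM1, DCTD, SAMHD1, DTYMK, DCK and TK2, in which DUT and RRM2, TK1 and RRM1, and RRM1 and DCTD overlapped. MOLM-14 ASLAN003 libraries had the order TYMS, RRM2, DUT, SAMHD1, RRM1, TK1, DCTD, DTYMK, DCK and TK2, and the neighbours TYMS and RRM2, TK1 and DCTD, DCTD and DTYMK, and DCK and TK2 overlapped. In MOLM-14 DMSO libraries TYMS, DUT, RRM2, RRM1, TK1, DCTD, DTYMK, SAMHD1, DCK and TK2 followed each other, with overlap between DUT and RRM2, DTYMK and SAMHD1, and DCK and TK2. TYMS was at the 95.5th to 96.9th percentile of all listed genes in the 4 groups, and TK2 at the 46.5th to 59.7th.

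After the mean of each line was removed, the 10 genes split in how they varied over the 12 libraries. RRM1 and TYMS ran together (Pearson r = 0.811), as did DCK and SAMHD1 (r = 0.771), TK2 and SAMHD1 (r = 0.761) and RRM2 and DCK (r = 0.694), whereas RRM1 and SAMHD1 ran opposite (r = -0.681). RRM1 and RRM2, which form the enzyme, had r = -0.121. The genes most like TYMS were PDHA1 (r = 0.963), XRCC2 (r = 0.953) and RBBP7 (r = 0.945), and those most like RRM2 were TCF19 (r = 0.956), ZNF440 (r = 0.952) and TUBGCP3 (r = 0.915). DCK ran most like WTAP (r = 0.934), TPMT (r = 0.934) and NSMAF (r = 0.933), and TK1 most like IBA57 (r = 0.898), PKMYT1 (r = 0.874) and KLF15 (r = 0.824). All points share libraries and the treatment contrast, so these values are descriptions with no p.

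Around the 10 genes, other enzymes of deoxynucleotide metabolism fell more often than they rose in KG-1. Of 24 such genes, 5 rose and 10 fell in KG-1 (3 to 6 and 8 to 13 when 1 library was left out), with a median change of -0.29, and 5 rose and 0 fell in MOLM-14 (2 to 6 and 0 to 2), with a median of 0.13 that was -0.02 under median centring. Over all tested genes, 19.4% rose and 14.3% fell in KG-1, and 9.69% rose and 3.33% fell in MOLM-14. The KG-1 count of the 24 genes that rose was 3 without KG-1 ASLAN003 2 or 3 or any KG-1 DMSO library. In MOLM-14 it was 3 without MOLM-14 ASLAN003 1 and 2 without MOLM-14 DMSO 1 or 2, and 2 genes fell without MOLM-14 ASLAN003 2. Under the 3 other scalings 3 rose in KG-1, and in MOLM-14 with centred medians 2 rose and 2 fell. At an unadjusted p under 0.05, for which no share of all tested genes is given, 6 were higher and 2 lower in MOLM-14. With MOLM-14 fitted alone, no gene of this list, or of the folate, reductant, mitochondrial DNA, replication, regulator and mitosis lists described next, passed in that line, ADK, TYMP and CCND3 included (adjusted p of 0.0547, 0.0501 and 0.0684). Among those that fell in KG-1, the nucleoside diphosphate kinase genes NME1 and NME2, near-identical neighbours whose reads may be divided uncertainly, averaged 119 ± 12.9 and 292 ± 15.7 FPKM in ASLAN003 libraries, against 242 ± 11.7 and 587 ± 4.90 FPKM in DMSO libraries (SD, n = 3 each). Their changes were -1.02 ± 0.14 for NME1 (limma adjusted p = 0.000104) and -1.01 ± 0.14 for NME2 (limma adjusted p = 0.000124). DNPH1, a hydrolase of deoxynucleoside monophosphates, fell in KG-1 (-1.40 ± 0.18, limma adjusted p = 7.19e-05), as did ADA, adenosine deaminase (-1.04 ± 0.15, limma adjusted p = 0.000226). In MOLM-14 their values were higher with ASLAN003 without a call, by 0.33 ± 0.18 for DNPH1 and 0.37 ± 0.15 for ADA.

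CDA, which deaminates cytidine and deoxycytidine, had 70.5, 70.0 and 68.0 FPKM in KG-1 ASLAN003 libraries, against 12.6, 10.3 and 12.6 FPKM in KG-1 DMSO libraries, and rose by 2.46 ± 0.33 (limma adjusted p = 0.000120). In MOLM-14 CDA was low, at 5.19, 0.86 and 1.7 FPKM in ASLAN003 and 0.09, 0.41 and 0.7 FPKM in DMSO libraries. It rose there by 1.19 ± 0.33 (limma adjusted p = 0.0349), a call lost under 11 of 22 alternatives. Without MOLM-14 ASLAN003 replicate 1, the library with the highest MOLM-14 level, the change was 0.70 and was not called. TYMP, thymidine phosphorylase, rose in KG-1 (0.60 ± 0.14, limma adjusted p = 0.00498) and in MOLM-14 (0.77 ± 0.14, limma adjusted p = 0.00390). ADK, adenosine kinase, rose in MOLM-14 (0.67 ± 0.11, limma adjusted p = 0.00279). DGUOK, the mitochondrial deoxyguanosine kinase, averaged 66.3 ± 6.19 FPKM in KG-1 ASLAN003 and 51.5 ± 1.97 FPKM in KG-1 DMSO libraries (SD, n = 3 each) and rose by 0.35 ± 0.11 (limma adjusted p = 0.0308). The DGUOK call was lost without KG-1 ASLAN003 2 or 3 or any KG-1 DMSO library (adjusted p of 0.0572 to 0.111), and under each of the 3 other scalings (0.0525 to 0.154), with a change of 0.23 when medians were centred.

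The folate genes that feed TYMS moved mostly downwards in KG-1, where 6 of 12 fell and 1 rose, beside 14.3% and 19.4% of all tested genes. Their median change was -0.39, and 4 to 7 fell and 0 or 1 rose when 1 library was left out. MTHFD1L, the mitochondrial formate synthetase, averaged 10.2 ± 0.834 FPKM in KG-1 ASLAN003 libraries, against 35.6 ± 0.600 FPKM in KG-1 DMSO libraries (-1.71 ± 0.15, limma adjusted p = 4.48e-06). SLC19A1, the reduced folate carrier, fell in KG-1 (-0.97 ± 0.16, limma adjusted p = 0.000621), and MTHFD1 did so too (-0.77 ± 0.15, limma adjusted p = 0.00170). SHMT2, the mitochondrial serine hydroxymethyltransferase, fell in KG-1 (-0.42 ± 0.12, limma adjusted p = 0.0163), a call lost without KG-1 ASLAN003 2 or KG-1 DMSO 3 (adjusted p of 0.0761 and 0.0766). MTHFD2, a mitochondrial folate dehydrogenase, had differences of -0.37 ± 0.14 in KG-1 and 0.06 ± 0.14 in MOLM-14 (limma adjusted p = 0.0524 and 0.826). In MOLM-14, 1 of the 12 fell and 1 rose, beside 3.33% and 9.69% of all tested genes, with a median of -0.14. The number of the 12 that fell was 3 without MOLM-14 ASLAN003 2 and 0 without MOLM-14 DMSO 1 or 2. With centred medians 4 fell in MOLM-14, with a median of -0.29, and 0 rose in either line. The gene that rose in MOLM-14, MTHFD2L, lost its call in 11 of 12 fits with 1 library left out, all but the one without MOLM-14 DMSO 2, and under each of the 3 other scalings (adjusted p of 0.0612 to 0.115).

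Of 6 genes for the proteins that reduce ribonucleotide reductase, GLRX, a glutaredoxin, rose in KG-1 (1.58 ± 0.19, limma adjusted p = 4.18e-05), while TXN, thioredoxin (-0.54 ± 0.13, limma adjusted p = 0.00646), and GLRX2 fell. The GLRX2 call was lost without KG-1 ASLAN003 3, KG-1 DMSO 1 or KG-1 DMSO 3 (adjusted p of 0.0608 to 0.0676). None of the 6 was called in MOLM-14 by limma, where library weights also gave 0 calls. At an unadjusted p under 0.05, with no share of all tested genes given, 1 was higher and 1 lower there. Without MOLM-14 ASLAN003 replicate 1, 1 of the 6 rose. The median changes of the 6 were -0.06 in KG-1 and 0.21 in MOLM-14. For this list and the next, the shares of all tested genes were 19.4% higher and 14.3% lower in KG-1. In MOLM-14 these shares were 9.69% higher and 3.33% lower. Of 10 genes of mitochondrial DNA maintenance, which uses the products of TK2 and DGUOK, 1 rose and 2 fell in KG-1 and 1 rose in MOLM-14. With 1 library left out, 0 to 4 fell in KG-1 (0 without KG-1 DMSO 1 or 2, and 4 without MOLM-14 ASLAN003 1), and the call in MOLM-14 was lost in 10 of 12 fits, all but those without MOLM-14 ASLAN003 3 or MOLM-14 DMSO 2. With centred medians 4 fell in KG-1 and 2 in MOLM-14, where 0 rose under any of the 3 other scalings. POLG, the mitochondrial DNA polymerase, rose in KG-1 (0.54 ± 0.13, limma adjusted p = 0.00564). It was also the gene called in MOLM-14 (0.42 ± 0.13, limma adjusted p = 0.0461), a call lost under 16 of 22 alternatives.

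Replication genes fell more often than they rose in KG-1. Of 36 such genes, 14 fell and 0 rose in KG-1, where 14.3% of all tested genes fell. When 1 library was left out, 9 to 16 fell, with 9 without KG-1 DMSO 1. At an unadjusted p under 0.05, for which no share of all tested genes is given, 16 were lower and 0 higher. In KG-1, 35 of the 36 had a change below 0, beside 45.6% of all tested genes. Their median was -0.32, between -0.44 and -0.32 over the scalings. In MOLM-14, 2 of the 36 fell, beside 3.33% of all tested genes. That count was 0 without MOLM-14 DMSO 2 or 3, 1 without MOLM-14 ASLAN003 1, 5 without MOLM-14 ASLAN003 2 and 6 with centred medians. The median of the 36 in MOLM-14 was -0.12, beside 0.08 for all tested genes. A change below 0 was seen in 24 of the 36 there, beside 40.1% of all tested genes. CDC45, a subunit of the replicative helicase, had 23.4 ± 1.48 FPKM in KG-1 ASLAN003 and 39.7 ± 3.13 FPKM in KG-1 DMSO libraries (SD, n = 3 each) and fell by 0.73 on the log2 scale (limma adjusted p = 0.000121). MCM7, of the same helicase, fell by 0.69 (limma adjusted p = 0.000153). PCNA, the sliding clamp, fell in KG-1 (-0.39 ± 0.099, limma adjusted p = 0.00890), by about as much as RRM1 and TYMS, and had a difference of 0.07 ± 0.099 in MOLM-14 (limma adjusted p = 0.695). The summed level of the 36 genes was 1508.7 to 1748.1 FPKM in KG-1 ASLAN003, against 2124.2 to 2207.8 FPKM in KG-1 DMSO libraries, and 1996.1 to 2357.7 FPKM in MOLM-14 ASLAN003, against 2247.5 to 2548.4 FPKM in MOLM-14 DMSO libraries. The part of the replication genes in the RRM1 and TYMS results was not tested.

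Of 20 mitosis genes, 3 fell in KG-1, a share near the 14.3% of all tested genes that fell. All 20 had a change below 0 in KG-1, beside 45.6% of all tested genes, with a median of -0.42. With 1 library left out, 0 to 9 fell in KG-1. That count was 0 without KG-1 ASLAN003 3 or KG-1 DMSO 1 and 1 without KG-1 DMSO 2. It was 5 without MOLM-14 ASLAN003 1 or 3, 9 without KG-1 ASLAN003 2 and 6 to 10 under the 3 other scalings. In MOLM-14, 14 of the 20 had a change below 0, beside 40.1% of all tested genes, with a median of -0.17. There, 1 of the 20 fell, beside 3.33% of all tested genes. That count was 0 to 3 when 1 library was left out, with 3 without MOLM-14 ASLAN003 1, and 2 under each of the 3 other scalings. MKI67, a proliferation marker, had differences of -0.37 ± 0.32 in KG-1 (limma adjusted p = 0.400) and 0.06 ± 0.32 in MOLM-14 (limma adjusted p = 0.945). Among 27 regulators of S phase entry, 3 rose and 4 fell in KG-1, beside 19.4% and 14.3% of all tested genes. In MOLM-14, 4 of the 27 rose and 2 fell, beside 9.69% and 3.33%. The number that fell in KG-1 was 2 without KG-1 ASLAN003 1 or 3 or any KG-1 DMSO library, and the number that rose in MOLM-14 was 1 without MOLM-14 ASLAN003 1 or MOLM-14 DMSO 2 and 2 without MOLM-14 DMSO 1. The number that fell in MOLM-14 was 0 without MOLM-14 DMSO 1 or 2 and 1 without KG-1 ASLAN003 1, any KG-1 DMSO library or MOLM-14 DMSO 3. With centred medians 7 fell in KG-1 and 1 rose in MOLM-14, with quantile normalization 2 rose in MOLM-14, and with KG-1 fitted alone or library weights 6 rose in KG-1. CDKN1A, the p21 inhibitor of cyclin-dependent kinases, rose in KG-1 (1.31 ± 0.21, limma adjusted p = 0.000461). In MOLM-14 CDKN1A rose by 0.79 ± 0.21 (limma adjusted p = 0.0285), and the change was 0.61 without MOLM-14 ASLAN003 1. The call was lost without MOLM-14 ASLAN003 1, MOLM-14 DMSO 1 or MOLM-14 DMSO 2 (adjusted p of 0.059 to 0.110). It was also lost with centred medians (0.0569) and with library weights (0.0865). CCND3, the cyclin D3 gene, rose in KG-1 (1.80 ± 0.15, limma adjusted p = 3.35e-06) and in MOLM-14 (0.71 ± 0.15, limma adjusted p = 0.00909). E2F1, an activator of RRM2, TYMS and TK1 genes, rose in KG-1 (0.41 ± 0.14, limma adjusted p = 0.0375), a call lost without KG-1 ASLAN003 1 or 2 or any KG-1 DMSO library (adjusted p of 0.0584 to 0.125), under each of the 3 other scalings (0.064 to 0.112) and without trend and robust moderation (0.0518).

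**Figure D4:**
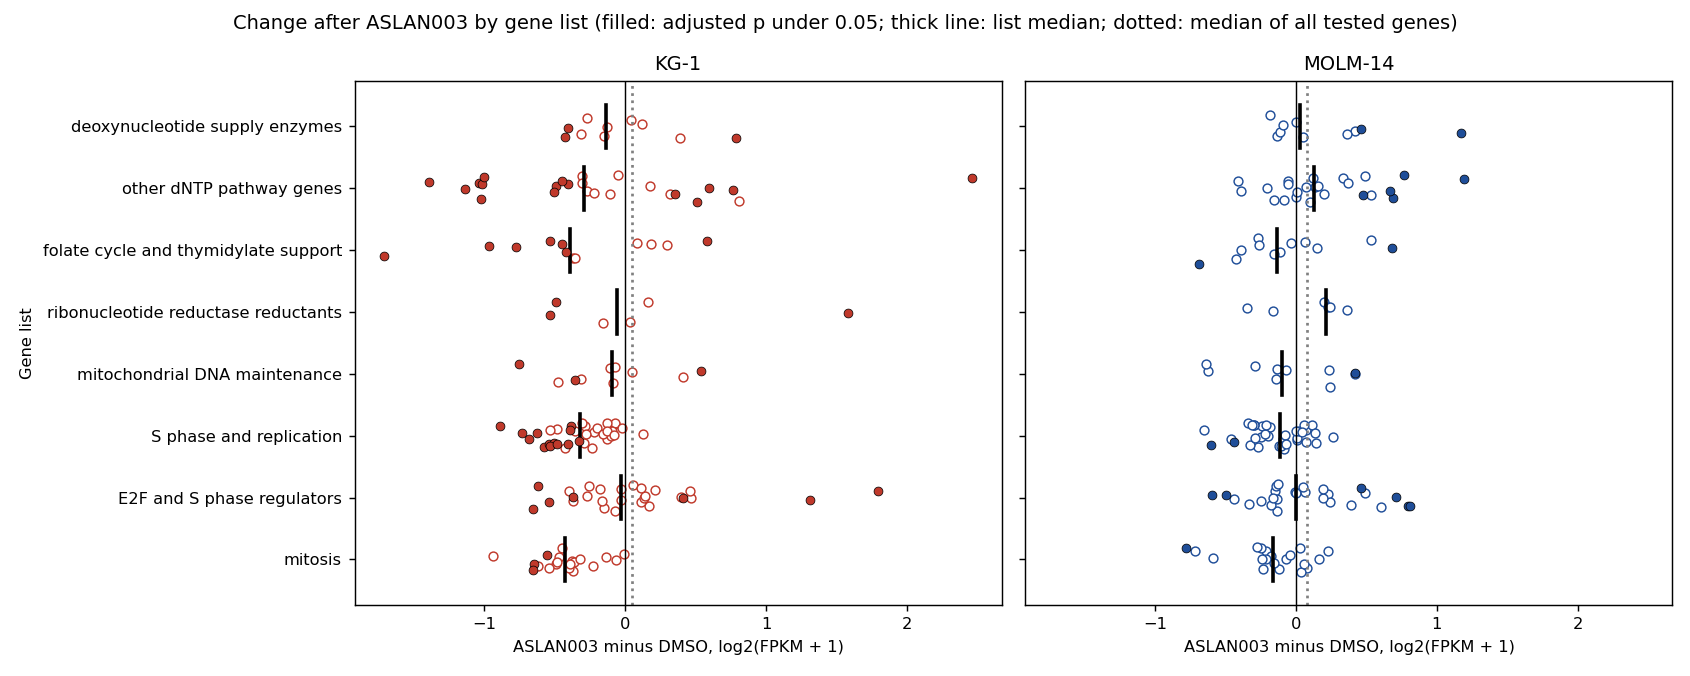
Change after ASLAN003 in each gene of 8 lists, as the difference of group means of log2(FPKM + 1), in KG-1 (left) and MOLM-14 (right), with filled points at an adjusted p under 0.05, thick lines at list medians and dotted lines at the median of all tested genes. Replication genes have a median of -0.32 in KG-1 and -0.12 in MOLM-14, and the deoxynucleotide supply enzymes of -0.14 and 0.03.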

How the data were processed

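Total RNA was sequenced by the authors in 12 libraries, with a stranded kit and paired reads per the labels' protocols. Per the submitters' processing notes, the tools were RSEM 1.2.25, STAR 2.4.2a and bcl2fastq 2.17.1.14, and the hg38 and GRCh38 builds are named. No source used here names the gene annotation. Values are on the log2 scale in the deposited table, log2(FPKM + 1) as judged from the numbers, with FPKM rounded to 0.01. FPKM is relative to the whole library, so abundant transcripts can shift all others. The table has no counts. Depth was estimated from the steps of low values, assuming fragments of 180 bases. Per library, 79.5% to 85.8% of 83 to 112 values lay within 0.15 fragment of a whole number. Multiples of the estimated depth would match too, and no count interval was computed.

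The 13353 genes that reached 1 FPKM in 3 or more libraries were fitted with limma 3.58.1 in R 4.3.3 on the 4 group means, with a pseudocount of 1, a mean trend and robust moderation. Tests were two-sided, and p-values were Benjamini-Hochberg adjusted over all tested genes. Contrasts were ASLAN003 minus DMSO in each line, the difference of these changes, and KG-1 minus MOLM-14 in DMSO. Changes on the log2(FPKM + 1) scale understate those of low genes. The 10 genes, the lists and the tests were chosen with earlier results of these data known. Other genes named come from up to 4 called per direction, list and line with the largest change, plus RRM2B, DGUOK, NME1, NME2, SHMT2, MTHFD2, PCNA, MKI67, CDKN1A and E2F1, and the text gives mainly those that kept their call in every fit without 1 library. Coordinates are those of GENCODE 29, which held 13784 of the identifiers, and promoters are from RefSeq. Date-like symbols were restored for 20 genes, and 79 genes sharing a symbol were kept apart by identifier. The fit was tested on simulated data. Some results of these lists are not reported here.

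Alternatives were a pseudocount of 0.1, no filter or one at 5 FPKM, quantile normalization, centred medians, rescaling after dropping histone, ribosomal, small RNA and mitochondrial genes, each line alone, no trend or robust moderation, the replicate number as a block, and each library left out. Library weights were added after the data were seen.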

Additional observations from a re-analysis of the deposited data

Results flagged for a closer look

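For 11 genes named beside the deoxynucleotide supply enzymes, the change after ASLAN003 differed between KG-1 and MOLM-14. The calls are by the limma test of the difference itself (adjusted p under 0.05). That test called none of the 10 supply enzymes and 9.94% of all tested genes. Most of the other named genes were picked for a large called change in 1 line of these same data. Such picking can favour genes that differ between the lines. The count of 11 therefore cannot be compared with the supply enzymes or with all tested genes. Each value below is the KG-1 change minus the MOLM-14 change on the log2(FPKM + 1) scale.

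The change was lower in KG-1 for DNPH1 (-1.73, limma adjusted p = 0.00161), ADA (-1.41, 0.00222), MTHFD1L (-1.28, 0.00316) and ADK (-0.89, 0.00477). It was also lower for CDT1, a replication licensing factor (-0.68, 0.0159), for NME2 (-0.80, 0.0219), for CDC45 (-0.61, 0.0175) and for SLC29A2, an equilibrative nucleoside transporter (-1.08, 0.0181). MTHFD2L, a mitochondrial folate enzyme, had -1.04 (0.0385). The change was higher in KG-1 for GLRX (1.22, 0.0129) and CCND3 (1.09, 0.00794). The calls of NME2, CDC45, SLC29A2 and MTHFD2L were lost when single libraries were left out. For CDC45 these were KG-1 ASLAN003 1 and KG-1 DMSO 3 (adjusted p of 0.050 to 0.052), for SLC29A2 they were KG-1 ASLAN003 1 and KG-1 DMSO 1 and 2 (0.0502 to 0.0547), for NME2 they were KG-1 ASLAN003 2, KG-1 DMSO 1 and 2 and MOLM-14 DMSO 2 (0.0525 to 0.0573), and for MTHFD2L they were 9 libraries (0.0509 to 0.0987).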

How the results depend on the processing

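SAMHD1 kept its call in both lines, and RRM1 and TYMS theirs in KG-1, under all 22 alternatives. SAMHD1 ranged from 0.67 to 0.82 in KG-1 (adjusted p of 2.99e-06 to 0.0018) and from 1.02 to 1.24 in MOLM-14 (6.63e-05 to 0.0118), RRM1 in KG-1 from -0.53 to -0.38 (0.000195 to 0.0215) and TYMS in KG-1 from -0.55 to -0.37 (0.000698 to 0.0483). Of 9 called results of the supply enzymes, 6 kept their call under every alternative and 3 lost it at least once, and of 66 called results of the other named genes 32 kept it and 34 lost it. The causes were not tested.

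The number of supply enzymes called in KG-1 (3) was 5 with centred medians, 5 with each line alone and 6 with library weights. Of the 13353 tested genes, 4665, 6108 and 7014 were called in KG-1 in these 3 fits, against 4494 as reported. In MOLM-14 (2) it was 1 with centred medians, quantile normalization, rescaling, each line alone, no trend and robust moderation, the replicate block and library weights. The number whose changes differed between lines (0) was 1 with library weights. All genes called were 7014 in KG-1 (4494 otherwise), 953 in MOLM-14 (1738) and 2226 for the difference (1327) with library weights, and 346 in MOLM-14 with each line alone. With 1 library left out, supply enzymes called were 3 to 4 in KG-1, 1 to 3 in MOLM-14, 0 to 2 for the difference and 2 to 6 between the lines in DMSO, and genes called were 3316 to 5252, 1070 to 2319, 745 to 2357 and 5561 to 7266.

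Scaling shifted the median of all genes from 0.05 to -0.07 (centred) and -0.05 (quantile) in KG-1, and from 0.08 to -0.07 and -0.02 in MOLM-14. The split of higher to lower calls moved with it. In KG-1 it was 2585 to 1909 as reported, 1994 to 2671 centred and 2184 to 2557 by quantiles, and in MOLM-14 it was 1294 to 444, 728 to 921 and 752 to 566.

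Differences near 0 changed sign, none of them called. In KG-1, DCK was -0.0031 centred and -0.0059 by quantiles, and RRM2 was -0.0797 centred, -0.0204 rescaled and -0.0717 to 0.131 with 1 library left out. In MOLM-14, DTYMK was -0.0971 centred, -0.0559 by quantiles, -0.0208 with library weights and -0.147 to 0.183 with 1 library left out. DUT was -0.305 to 0.0781 with 1 library left out (0.0781 without MOLM-14 ASLAN003 1), and TYMS was 0.0638 with library weights and -0.0567 to 0.0763 with 1 library left out. The difference between the changes spanned -0.0836 to 0.143 for TK1 and -0.0558 to 0.198 for TK2 with 1 library left out. Between the lines in DMSO the spans were -0.117 to 0.0302 for TK1 and -0.0788 to 0.0542 for TYMS.

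Libraries with the same replicate number shared little deviation from their group means. Deviations of libraries with the same number correlated at 0.041, 0.020 and 0.032 in KG-1 and at 0.10, -0.002 and 0.040 in MOLM-14. Those with different numbers correlated at -0.070 to 0.031 in KG-1 and at -0.083 to 0.049 in MOLM-14. Whether libraries of the same number shared a culture or a preparation was not tested. With the replicate block, 1 supply enzyme was called in MOLM-14, without RRM2 (adjusted p = 0.0693), and TK2 between the lines in DMSO was at 0.0586.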
